A study of Homo sapiens with 6 samples.

Results

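The genes described here act in G2 phase and mitosis. They were 50 genes chosen by name from a fixed list of mitotic kinases, cyclins, spindle and kinetochore genes, out of 58735 genes in the count table, and all 50 were found there. The rule used no threshold on a measured value, but the list was chosen with earlier results of these data known. RNA-Seq was performed with BT549 cells, an established basal-like breast cancer (BBC) cell line, and every library came from this line. Controls were 3 libraries from cells given DMSO, the solvent, and the treated group was 3 libraries from cells given AS1842856, a FOXO1 inhibitor. For both groups 100000 cells were plated on 10 cm dishes and treatment lasted 48 h. The dose was 200 nM in the sample labels and 1 μM in the methods text, and which of them applied to these libraries was not resolved. Replicates carried the letters A, B and C, and the methods call them biological replicates.

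Entry into mitosis is driven by the kinase CDK1 bound to its B-type cyclins, once CDC25 phosphatases remove inhibitory phosphates from it. Chromosomes then attach to the spindle through kinetochores, and the spindle checkpoint holds the anaphase-promoting complex (APC/C) in check until every pair is attached. Many genes of this program are transcribed late in the cell cycle through the MuvB complex with MYBL2 and FOXM1, which reads a promoter element called the CHR (cell cycle genes homology region), often beside CCAAT boxes bound by NF-Y. The same MuvB core joins RBL1 or RBL2 and E2F4 in the DREAM complex, which represses these genes in resting cells. High levels of mitotic genes are a known trait of fast-dividing tumors such as BBC.

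The libraries held between 15289500 and 22981832 counts, with overlapping totals in the groups, and TMM scaling factors were between 0.995 and 1.01. Levels are given below as CPM, the counts after TMM scaling to library size, and each level of a group is the mean ± SD of 3 libraries. As markers of the line, VIM, CD44, CAV1, FN1 and AXL were all present, at group means between 135 and 1320 CPM. Their levels differed between the groups. From DMSO to AS1842856, FN1 rose from 450 to 981 CPM and AXL fell from 423 to 135 CPM. VIM fell from 1320 to 1050 CPM, CD44 from 897 to 655 CPM and CAV1 from 657 to 435 CPM. ESR1, PGR, EPCAM and CDH1, markers of hormone-responsive or epithelial cells, held between 0 and 8 counts in each library, and ERBB2 was at 46.7 CPM in DMSO and 25 CPM with AS1842856. Of the leukocyte and endothelial markers, CD3E and CDH5 were at 0 counts in all 6 libraries, PECAM1 had at most 1 count and CD14 between 5 and 19. PTPRC had between 13 and 74 counts and rose from 1.15 to 3.16 CPM, and the part of such a rise in the results was not tested. Gene positions are those of GENCODE release 29 on GRCh38.

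AS1842856 treatment lowered most of the mitotic genes by a small amount, and no member was called higher. All 50 members passed the filter on low counts. In edgeR's quasi-likelihood test, with a threshold of 0.05 on the adjusted p, 40 were lower, 0 were higher and 10 were not called. Of all 14338 genes tested, 28.4% were lower and 27.6% were higher. DESeq2 also called 40 members lower and 0 higher, against 18.8% and 18.0% of the genes it tested, and at an unadjusted p under 0.05 edgeR gave 41 lower and 0 higher. The median log2 fold change of the members was -0.28, compared with 0.00 for all genes tested. The median size of the change, without its sign, was 0.28 for the members and 0.26 for all genes. Thus the median size of change in the members was near that of all genes tested, but every called change was downward. All genes tested include many with lower counts than the members, and no set matched for level was compared. Among the 40 lower members the median change in level was -20.6%, 17 were lower by at least 25%, and only CDC25C went below 50% of its DMSO mean.

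The AS1842856 libraries were all below the DMSO libraries in 42 members, against 30.3% of all genes tested, and all above in 1 member, against 29.5%. Summed over the 50 members, the DMSO libraries A, B and C held 10405, 10610 and 10645 CPM. The AS1842856 libraries held 8375.8, 8546.4 and 8321 CPM. Members took between 1.04% and 1.07% of the counts of a DMSO library and between 0.829% and 0.849% of an AS1842856 library, with no overlap between the groups. In RNA from whole dishes, fewer cells in G2 and mitosis and less RNA per cell cannot be told apart.

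**Figure D1:**
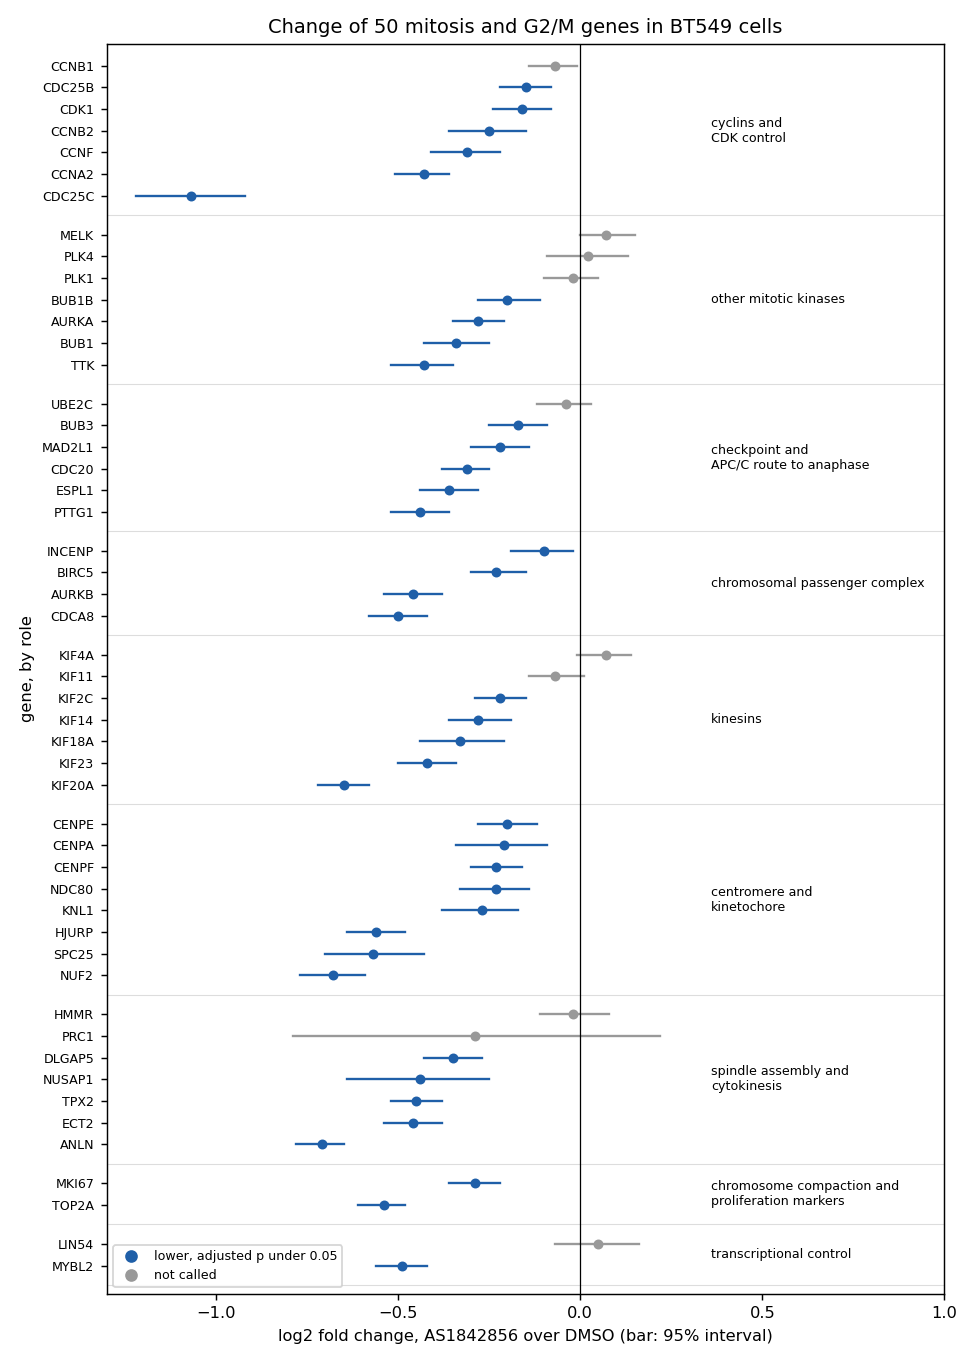
Log2 fold change of each of the 50 members, AS1842856 over DMSO, grouped by role, with bars for the 95% interval (3 libraries per group, edgeR). Blue points passed an adjusted p of 0.05 and grey points did not; 40 points are blue, all to the left of 0, and CDC25C is farthest left at -1.07.

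The members were abundant genes. On the FPKM scale, which divides by gene length and so allows levels of different genes to be compared, 46 of 50 had a DMSO mean of at least 10, the median was 34.0, and 33 lay above the 90th percentile of the 25015 genes listed. The highest levels in DMSO were those of MYBL2, at 241 ± 3.66 FPKM, and CDC20, at 236 ± 5.11 FPKM, whose spreads touched. CCNB1 followed at 197 ± 3.88, then TPX2 at 171 ± 2.13 and UBE2C at 148 ± 0.941 FPKM. The lowest were LIN54 at 6.96 ± 0.278, KNL1 at 6.72 ± 0.148, NUSAP1 at 6.63 ± 0.560 and PRC1 at 0.436 ± 0.153 FPKM. The levels of LIN54, KNL1 and NUSAP1 lay within their spread of each other. Of the exonic bases of NUSAP1 and PRC1, 62.2% and 57.6% are shared with another gene, so both levels are uncertain. Genes with higher counts were called more often in either direction, 63.7% of the 11446 genes with a mean of at least 50 counts against 56.0% of all genes tested. Among those 11446 genes 32.7% were lower, and 41 of the 49 members in that range were lower. By limma on log2(FPKM + 1) with no filter, which tested all listed genes, 38 members and 12.9% of genes were lower.

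Promoters of the members were examined for the elements of late cell cycle genes. RefSeq (GRCh38.p14) gave promoter windows, from 250 bases before to 50 bases after a transcript start, for 43 of the 50 members. BUB3, TTK, AURKA, KNL1, BIRC5, TPX2 and UBE2C were not matched. The CHR was searched as TTTGAA or TTTAAA and the CCAAT box as CCAAT, each on both strands. Below are the 100 bases before the start of 7 members, 5′ to 3′ on the strand of the gene, with CHR and CCAAT letters in capitals, whichever strand they lie on. CDC25C, KIF20A, CDCA8 and CCNB2 are shown as members that fell, and CCNB1, PLK1 and KIF4A as members that were not called, so that the same elements can be seen in both.
CDC25C: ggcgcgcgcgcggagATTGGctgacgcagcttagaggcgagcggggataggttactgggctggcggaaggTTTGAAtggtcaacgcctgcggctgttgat
KIF20A: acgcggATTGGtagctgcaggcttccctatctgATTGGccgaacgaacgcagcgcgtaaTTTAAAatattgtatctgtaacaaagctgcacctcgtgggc
CDCA8: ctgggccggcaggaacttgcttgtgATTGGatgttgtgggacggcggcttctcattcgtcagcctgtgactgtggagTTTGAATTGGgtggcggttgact
CCNB2: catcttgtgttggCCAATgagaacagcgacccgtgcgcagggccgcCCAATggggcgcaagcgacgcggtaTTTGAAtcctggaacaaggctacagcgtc
CCNB1: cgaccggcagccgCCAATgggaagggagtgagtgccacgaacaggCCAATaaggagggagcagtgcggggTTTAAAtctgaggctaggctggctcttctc
PLK1: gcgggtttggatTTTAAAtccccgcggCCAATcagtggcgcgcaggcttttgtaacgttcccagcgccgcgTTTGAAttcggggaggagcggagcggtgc
KIF4A: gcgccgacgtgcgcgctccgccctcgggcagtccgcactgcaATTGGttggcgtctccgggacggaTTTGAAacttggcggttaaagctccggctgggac
The windows are chr5:138331805-138331904 on the minus strand for CDC25C, 1 of its 4 windows, and on the plus strand chr5:138179012-138179111 for KIF20A, chr1:37692416-37692515 for CDCA8, chr15:59105046-59105145 for CCNB2, chr5:69167050-69167149 for CCNB1, chr16:23678789-23678888 for PLK1 and chrX:70290004-70290103 for KIF4A. Each of the 7 held at least 1 CHR and 1 CCAAT box within these 100 bases. The 7 genes and the CDC25C window were chosen by hand, so this does not describe the members as a whole. Members without a CCAAT box in any window, such as ANLN and NUF2, which fell, are not shown. MELK, which was not called, and MYBL2, which fell, had neither element and are not shown either. In CDCA8 the CHR and a CCAAT box read from the other strand share a base, which gives the unbroken capitals near the start.

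CHR letters were present in 38 of the 43 members with a window (88.4%), compared with 27.9% of the 27305 genes with a window and 21.3% of the 10149 genes that were also tested. The CCAAT box was present in 34 members (79.1%), compared with 39.7% of all genes and 43.3% of tested genes. Both were present in 31 members (72.1%), compared with 12.7% and 11.2%, but not always in the same window of a gene. In PLK4 and CDC25B the CHR and the CCAAT box lay only in different windows. Some genes have more than 1 window, 1.3 on average for the members and 1.46 for tested genes, and any window counted. With the window listed first for each gene, the shares were 83.7% of members and 15.6% of tested genes for the CHR, and 72.1% and 36.9% for the CCAAT box. In the 37 genes with a CHR in the window plotted, the median first base of its 58 matches lay 30 bases before the start (position -30). The 71 CCAAT matches had a median position of -79.

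Shares of lower members were similar with and without these letters, but only 5 members lacked the CHR letters and 9 the CCAAT box. Groups this small cannot show whether the elements separate members that fell from those that were not called. Other forms of the CHR were not searched, so a member without these letters is not shown to lack the element. Of the 38 members with a CHR, 30 were lower, and their group had a median of -0.29 in log2 fold change. Of the 5 without CHR letters in a window (CCNA2, BUB1, MELK, AURKB and MYBL2), 4 were lower, with a median of -0.43. With a CCAAT box, 27 of 34 were lower (median -0.31), and without it 7 of 9 (median -0.22). An E2F site, searched as TTTCCCGC or TTTGGCGC on both strands, was found in 2 members, CENPA and NUSAP1 (4.65%, compared with 4.75% of tested genes). The forkhead core GTAAACA, on either strand, was found in 1 member, CDK1 (2.33%, compared with 3.49% of tested genes). These are matches of letters in a window, not measured binding.

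**Figure D2:**
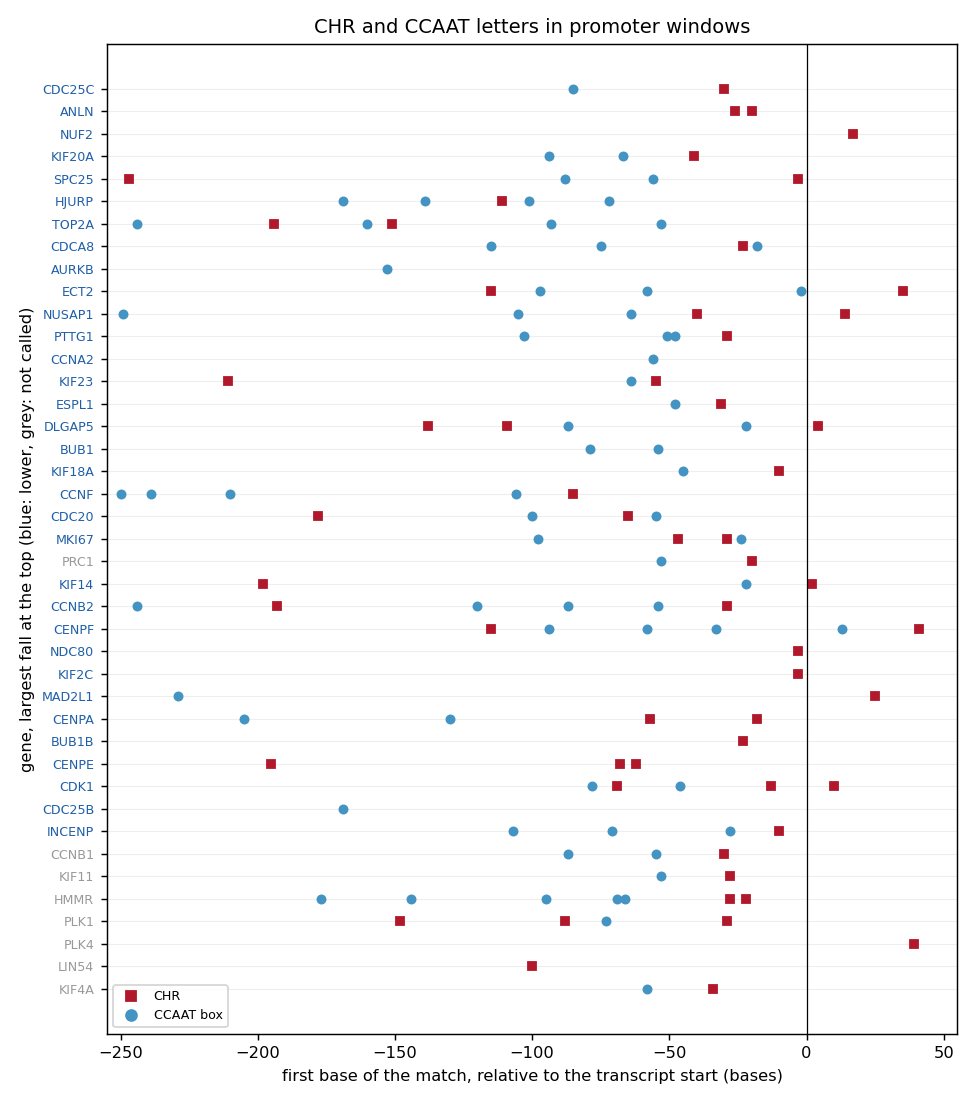
First base of each CHR (red squares) and CCAAT box (blue circles) in 1 promoter window per gene, relative to the transcript start, for the 41 members with either element, ordered by log2 fold change. Over all plotted genes, CHR matches gather close to the start (median -30) and CCAAT boxes farther upstream (median -79). Names are blue for lower and grey for not called genes, and positions were not compared between these groups. The window plotted is the one whose sequence is shown in the text, otherwise the one with the most matches.

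Among the cyclins and regulators of CDK1, 6 of 7 were lower and 1 was not called, with a median log2 fold change of -0.25. CDC25C (ENSG00000158402, chromosome 5 from 138285265 to 138338355), a phosphatase that activates CDK1 at mitotic entry, fell the most of all members. It had 37.9, 39.1 and 40.1 CPM in DMSO libraries A, B and C, and 18.1, 18.0 and 19.7 CPM with AS1842856. Each treated library was at about the same level, far below each control, and the log2 fold change was -1.07 (standard error [SE] 0.08, adjusted p = 3.79e-32). CDC25C shares 293 exonic bases with the opposite-strand gene FAM53C, whose counts were 377% of its own, with a log2 fold change of 0.18. The strand setting of the counting was not given in the sources used here, so part of the CDC25C counts is uncertain.

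CDK1 (ENSG00000170312, chromosome 10 from 60778331 to 60794852), the kinase itself, had 172, 174 and 175 CPM in DMSO and 156, 157 and 153 CPM with AS1842856. The groups did not overlap, although the fall was small, with a log2 fold change of -0.16 (SE 0.04, adjusted p = 0.00016). CCNB1 (ENSG00000134057, chromosome 5 from 69167010 to 69178245), the main mitotic cyclin, had 507, 500 and 518 CPM in DMSO and 490, 485 and 475 CPM with AS1842856. These groups did not overlap either, but the log2 fold change of -0.07 (95% interval -0.14 to -0.01) was not called, with an adjusted p of 0.0591. Over all alternatives its adjusted p ran from 0.0363 to 0.187, and DESeq2 called it (0.0407). Without DMSO replicate A the adjusted p was 0.049, and without DMSO replicate B it was 0.0404. The other B-type cyclin, CCNB2, had a log2 fold change of -0.25, and CCNA2, which acts in S phase and G2, one of -0.43. CCNF, a cyclin that serves as a ubiquitin ligase subunit, had -0.31, and CDC25B, the phosphatase that starts CDK1 activation, had -0.15. CCNA2 shares 254 exonic bases with EXOSC9 on the opposite strand, whose counts were 38.4% of its own and whose log2 fold change was 0.00.

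Among the other mitotic kinases, 4 of 7 were lower and 3 were not called, with a median of -0.20. TTK (ENSG00000112742, chromosome 6 from 80003887 to 80042527), the kinase that starts the spindle checkpoint, had 125, 139 and 143 CPM in DMSO and 99.8, 105 and 95.8 CPM with AS1842856. The groups did not overlap, with DMSO replicate A nearest to the treated libraries, and the log2 fold change was -0.43 (SE 0.04, adjusted p = 2.08e-18). The checkpoint kinases BUB1 and BUB1B had log2 fold changes of -0.34 and -0.20. AURKA, which matures the spindle poles, had -0.28.

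In contrast, PLK1 (ENSG00000166851, chromosome 16 from 23677656 to 23690367), a kinase needed from mitotic entry to cytokinesis, had 196, 201 and 209 CPM in DMSO and 194, 200 and 203 CPM with AS1842856. The groups overlapped, and the log2 fold change of -0.02 had a 95% interval from -0.10 to 0.05 (adjusted p = 0.665). PLK4, the kinase of centriole duplication, had a log2 fold change of 0.02 with an interval from -0.09 to 0.13. MELK, a kinase with high levels in dividing cells, was the member whose treated libraries all lay above the controls, between 226 and 232 CPM against 212 to 219 CPM, with a log2 fold change of 0.07 that was not called (adjusted p = 0.084).

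**Figure D3:**
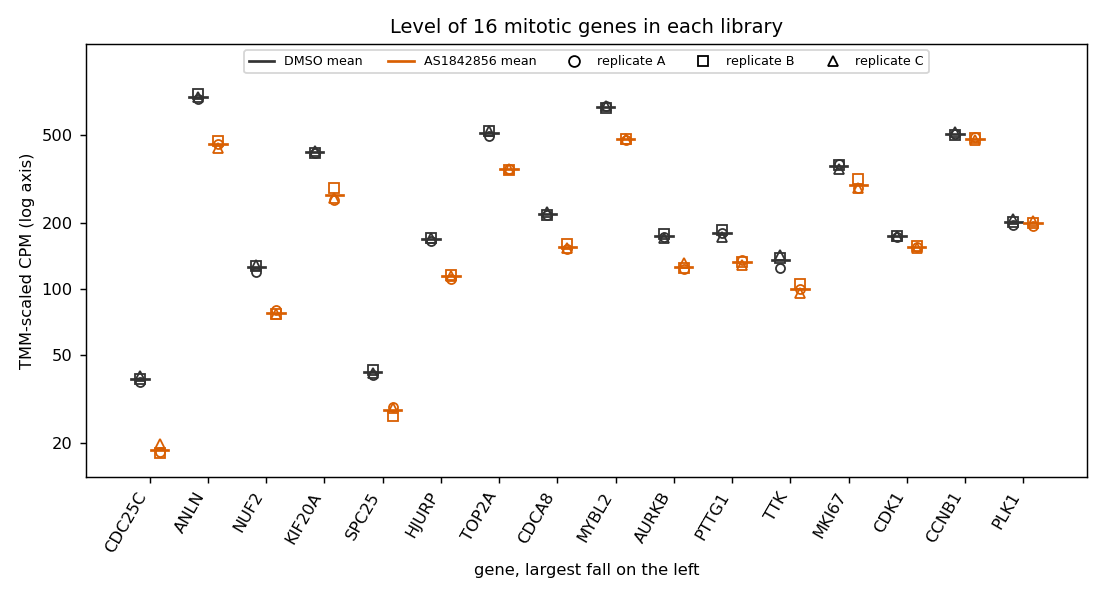
Level of 16 members in each library, in TMM-scaled CPM on a log axis, with DMSO in black, AS1842856 in orange, a marker for each replicate letter and a bar for the mean. CDC25C, at the left, goes from 39.0 to 18.6 CPM, and PLK1, at the right, overlaps between groups at 202 and 199 CPM.

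Of the checkpoint and APC/C genes that lead to anaphase, 5 of 6 were lower and 1 was not called, with a median of -0.27. PTTG1 (ENSG00000164611, chromosome 5 from 160421822 to 160428744), or securin, which holds separase inactive until anaphase, had 180, 186 and 173 CPM in DMSO and 136, 132 and 129 CPM with AS1842856. The groups lay well apart, with a log2 fold change of -0.44 (SE 0.04, adjusted p = 5.06e-22). Its near copies PTTG2 and PTTG3P held 0 counts. ESPL1, which is separase, had -0.36, and CDC20, the activator of the APC/C in mitosis, had -0.31. The checkpoint proteins MAD2L1 and BUB3 had -0.22 and -0.17. UBE2C, the ubiquitin-conjugating enzyme of the APC/C, had 193, 191 and 191 CPM in DMSO and 185, 190 and 182 CPM with AS1842856. Its treated libraries were all below the controls, but the log2 fold change of -0.04 (95% interval -0.12 to 0.03) was not called.

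All 4 subunits of the chromosomal passenger complex, which corrects wrong attachments and later guides cytokinesis, were lower (median -0.34). CDCA8 (ENSG00000134690, chromosome 1 from 37692418 to 37709719), the subunit borealin, had 216, 218 and 224 CPM in DMSO and 152, 160 and 153 CPM with AS1842856. Its log2 fold change was -0.50 (SE 0.04, adjusted p = 1.88e-28), with no overlap. AURKB (ENSG00000178999, chromosome 17 from 8204733 to 8210600), the kinase of the complex, had 172, 178 and 171 CPM in DMSO and 123, 124 and 131 CPM with AS1842856, and a log2 fold change of -0.46 (SE 0.04, adjusted p = 2.01e-23). BIRC5, or survivin, had -0.23. INCENP, the scaffold, had the smallest called fall of the members, at -0.10 (adjusted p = 0.0216). Its call was lost in DESeq2 (adjusted p = 0.0576) and without AS1842856 replicate A (0.0618), AS1842856 replicate C (0.0527) or DMSO replicate C (0.0938). Over all alternatives its adjusted p ran from 0.00854 to 0.0938.

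Among the kinesins, motor proteins that move along microtubules, 5 of 7 were lower and 2 were not called, with a median of -0.28. KIF20A (ENSG00000112984, chromosome 5 from 138178719 to 138187715), a motor of the central spindle and cytokinesis, had 417, 414 and 424 CPM in DMSO and 253, 287 and 260 CPM with AS1842856. Its treated libraries varied more than its controls but lay far below them, with a log2 fold change of -0.65 (SE 0.04, adjusted p = 4.20e-44). KIF23, the motor of centralspindlin, had -0.42, and KIF18A, which limits the movement of chromosomes at the spindle center, had -0.33. KIF14, a cytokinesis motor, had -0.28, and KIF2C, which takes apart microtubules at centromeres, had -0.22. KIF11, which pushes the spindle poles apart, had a log2 fold change of -0.07 (95% interval -0.14 to 0.01), and KIF4A, a motor on chromosome arms, had 0.07 (95% interval -0.01 to 0.14). Neither was called and the groups overlapped in both. KIF20A shares exonic bases with BRD8 and CDC23 of the opposite strand, at 26.4% and 27.3% of its counts and with log2 fold changes of -0.25 and -0.10. KIF18A shares them with METTL15, at 35.6% of its counts, which had a log2 fold change of -0.28 (adjusted p = 0.00657), near that of KIF18A. KIF4A shares them with PDZD11, at 30.6% of its counts and with a log2 fold change of -0.08.

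All 8 centromere and kinetochore members were lower, with a median of -0.25. NUF2 (ENSG00000143228, chromosome 1 from 163266576 to 163355764) encodes a subunit of the NDC80 complex, which grips spindle microtubules. It had 120, 127 and 129 CPM in DMSO and 80, 77.0 and 77.2 CPM with AS1842856, a log2 fold change of -0.68 (SE 0.05, adjusted p = 2.07e-35). SPC25 (ENSG00000152253, chromosome 2 from 168834132 to 168913371), of the same complex, had 40.7, 43.0 and 41.5 CPM in DMSO and 29.2, 26.5 and 28.9 CPM with AS1842856. Its log2 fold change was -0.57 (SE 0.07, adjusted p = 3.85e-14), and neither gene overlapped between groups. NDC80 itself had -0.23.

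HJURP (ENSG00000123485, chromosome 2 from 233833416 to 233854566), the chaperone that loads the centromeric histone CENPA, had 165, 171 and 170 CPM in DMSO and 111, 116 and 115 CPM with AS1842856. The groups lay well apart, with a log2 fold change of -0.56 (SE 0.04, adjusted p = 2.33e-31). CENPA had -0.21 (adjusted p = 0.00141). CENPA shares 138 exonic bases with SLC35F6 on the same strand, which held 147% as many counts and had a log2 fold change of 0.63. The scaffold KNL1 had -0.27, CENPF, a large kinetochore protein, had -0.23, and CENPE, the kinetochore motor that brings chromosomes to the spindle center, had -0.20.

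Of the spindle assembly and cytokinesis members, 5 of 7 were lower and 2 were not called, with a median of -0.44. ANLN (ENSG00000011426, chromosome 7 from 36389806 to 36453791), or anillin, which organizes the contractile ring, had 730, 767 and 743 CPM in DMSO and 454, 471 and 438 CPM with AS1842856. Among the members its fall was next to that of CDC25C, with a log2 fold change of -0.71 (SE 0.03, adjusted p = 3.01e-55). ECT2, which activates RhoA at the division plane, had -0.46, and TPX2, which activates AURKA on spindle microtubules, had -0.45. DLGAP5, a spindle microtubule protein, had -0.35. HMMR, which binds spindle poles, had a log2 fold change of -0.02 (95% interval -0.11 to 0.08).

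NUSAP1 and PRC1, which bundle microtubules, were read from few counts. NUSAP1 had a log2 fold change of -0.44 (SE 0.10), from a mean of 310.2 counts, and 62.2% of its exonic bases are also annotated to AC087721.2 on the same strand, which held 0 counts. PRC1 had a mean of 41.8 counts, the lowest of the members, and a log2 fold change of -0.29 with a 95% interval from -0.79 to 0.22. Of its exonic bases 57.6% are shared with AC068831.7 on the same strand, which held 557% as many counts as PRC1 and had a log2 fold change of -0.05. How reads in shared bases were assigned was not given in the sources used here, so the NUSAP1 and PRC1 values are uncertain. In all, 18 members share exonic bases with another gene, and in 7 the other gene held over 10% as many counts.

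The gene TOP2A (ENSG00000131747, chromosome 17 from 40388516 to 40417950) encodes the topoisomerase that untangles chromosomes before they separate. It had 494, 522 and 522 CPM in DMSO and 353, 349 and 353 CPM with AS1842856, and its log2 fold change was -0.54 (SE 0.03, adjusted p = 1.46e-37). MKI67 (ENSG00000148773, chromosome 10 from 128096659 to 128126385), which encodes the proliferation marker Ki-67 and coats mitotic chromosomes, had 369, 368 and 353 CPM in DMSO and 287, 315 and 287 CPM with AS1842856. Its log2 fold change was -0.29 (SE 0.04, adjusted p = 1.23e-13). Neither gene overlapped between groups.

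Both members that act in transcription are part of the MuvB system. MYBL2 (ENSG00000101057, chromosome 20 from 43667019 to 43716496), or B-MYB, had 682, 664 and 677 CPM in DMSO and 478, 482 and 481 CPM with AS1842856. Its libraries were tightly grouped, with a log2 fold change of -0.49 (SE 0.03, adjusted p = 1.38e-33). LIN54, the MuvB subunit that binds the CHR, had a log2 fold change of 0.05 (95% interval -0.07 to 0.16) and was not called.

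Levels of partner genes of the same complex or step were compared within each library. For 8 such groups, the member or listed partner lowered the most was divided by the one lowered the least, in CPM within each library. These pairs were picked by their change between the same libraries, which fixes the direction of the ratio, so the ratios are a description with no test. The CDCA8 to INCENP ratio was 1.6, 1.56 and 1.56 in DMSO and 1.19, 1.22 and 1.19 with AS1842856. The NUF2 to SPC24 ratio, both in the NDC80 complex, was 1.53, 1.56 and 1.56 in DMSO and 1.16, 1.09 and 1.15 with AS1842856. CDCA8 and NUF2 are the subunits of their complexes with the largest fall. The CCNA2 to CCNB1 ratio was 0.466, 0.471 and 0.472 in DMSO and 0.362, 0.367 and 0.369 with AS1842856. The CDC25C to CDC25A ratio moved the most, from 0.711, 0.738 and 0.701 to 0.281, 0.278 and 0.333. The KIF23 to RACGAP1 ratio, the 2 parts of centralspindlin, was 0.641, 0.665 and 0.631 in DMSO and 0.597, 0.638 and 0.613 with AS1842856, and overlapped between groups.

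**Figure D4:**
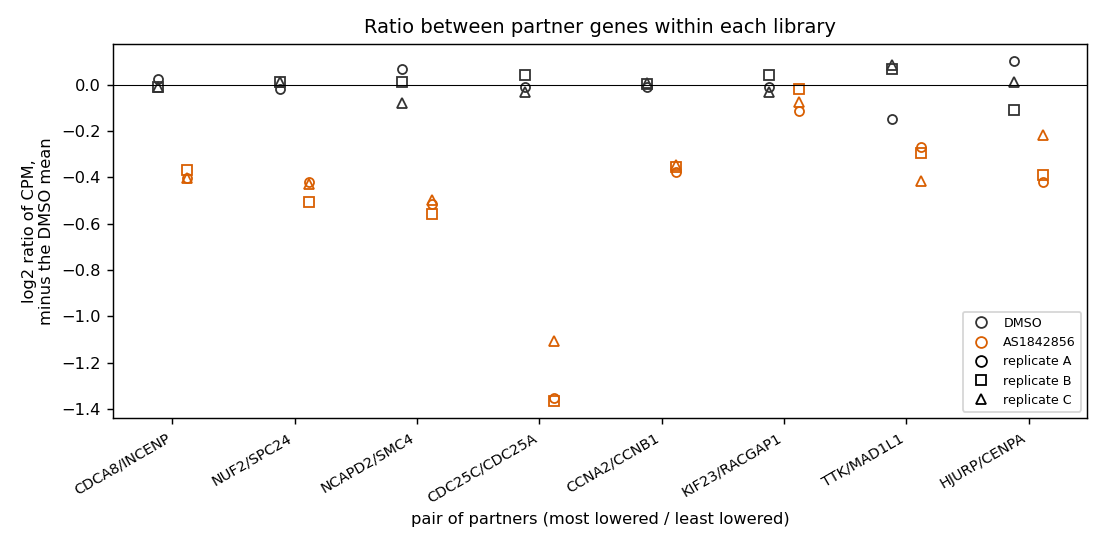
Ratio of CPM between partner genes in each library, as log2 minus the mean log2 ratio of DMSO, for 8 pairs (DMSO black, AS1842856 orange, a marker per replicate letter). Pairs were picked by their change, and treated libraries lie below the controls in 7 of them, lowest for CDC25C/CDC25A, and overlap them for KIF23/RACGAP1.

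To place the members in the wider pathway, 108 further mitotic genes in 7 lists were read from the same test. Of these, 58 were lower, 11 were higher and 39 were not called, with a median log2 fold change of -0.15. The counts of each list are to be set beside the 28.4% of all tested genes that were lower and the 27.6% that were higher. Of the genes of G2/M transcription, 4 of 15 were lower (26.7%) and 4 were higher, a share close to that of all genes, with a median of -0.04. FOXM1, the forkhead factor of late cell cycle genes, had 318 ± 7.95 CPM in DMSO and 320 ± 4.24 CPM with AS1842856, and its log2 fold change of 0.01 had a 95% interval from -0.06 to 0.08. MYBL1, or A-MYB, a relative of MYBL2, fell from 365 ± 10.6 CPM in DMSO to 132 ± 4.65 CPM with AS1842856, a log2 fold change of -1.46 (SE 0.04, adjusted p = 6.91e-104). E2F5, a repressor-type E2F, rose from 24.4 ± 0.530 CPM in DMSO to 36.8 ± 2.18 CPM with AS1842856, a log2 fold change of 0.59 (SE 0.07). The DREAM pocket proteins went in opposite directions, with 0.29 for RBL1 and -0.53 for RBL2, both called. RBL1 and RBL2 were named after their values were seen.

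In the mitotic entry list 9 of 13 were lower and 2 were higher, with a median of -0.19. BORA, which helps to activate PLK1, had the largest fall, with a log2 fold change of -0.69, and CDC25A, the phosphatase that also acts at S phase entry, the largest rise, with 0.20. In the list of APC/C subunits and regulators 9 of 17 were lower and 2 higher, with a median of -0.16, from CDC26 (-0.53) to ANAPC4 (0.34). Of 28 other kinetochore genes 15 were lower and only ZWINT was higher (median -0.14). OIP5, which helps to load CENPA, had -0.45, and ZWINT, a partner of the KNL1 network, had 0.14. The OIP5 call was lost in limma on log2(FPKM + 1) with no filter (adjusted p = 0.0502).

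Of 8 condensin genes, whose products compact chromosomes, 5 were lower and 1 higher (median -0.21). NCAPD2 had a log2 fold change of -0.60, while that of NCAPH2 was 0.12. The NCAPH2 call was lost in several alternatives, with an adjusted p of 0.0646 in DESeq2, 0.0632 in limma on log2(FPKM + 1) with no filter, 0.0848 in edgeR with no filter, 0.061 without AS1842856 replicate C and 0.164 without DMSO replicate B. Of 12 cohesin genes, whose products hold sister chromatids together, 5 were lower and 1 higher (median -0.02). STAG2 had -0.41 and PDS5A 0.10, and the PDS5A call was lost in 6 alternatives. Its adjusted p was 0.0638 in limma on log2(FPKM + 0.1), 0.065 on log2(FPKM + 1) and 0.104 on the latter with no filter. It was 0.123 in edgeR with no filter, 0.131 without AS1842856 replicate B and 0.145 without DMSO replicate B. Of 15 other spindle and cytokinesis genes 11 were lower and 0 higher in edgeR (median -0.23), with 0 higher in DESeq2 and 1, KIF2A, higher at an unadjusted p under 0.05. CKAP2, a spindle protein, had the largest fall, -0.60.

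As a comparison outside mitosis, 30 genes of DNA replication were read in the same way. Of these, 15 were lower (50% of the list, beside 28.4% of all tested genes) and 4 were higher, with a median of -0.13. MCM5, a subunit of the replicative helicase, had a log2 fold change of -0.60, and RFC5, a clamp loader subunit, had 0.75. The difference between these lists and the members was not tested.

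**Figure D5:**
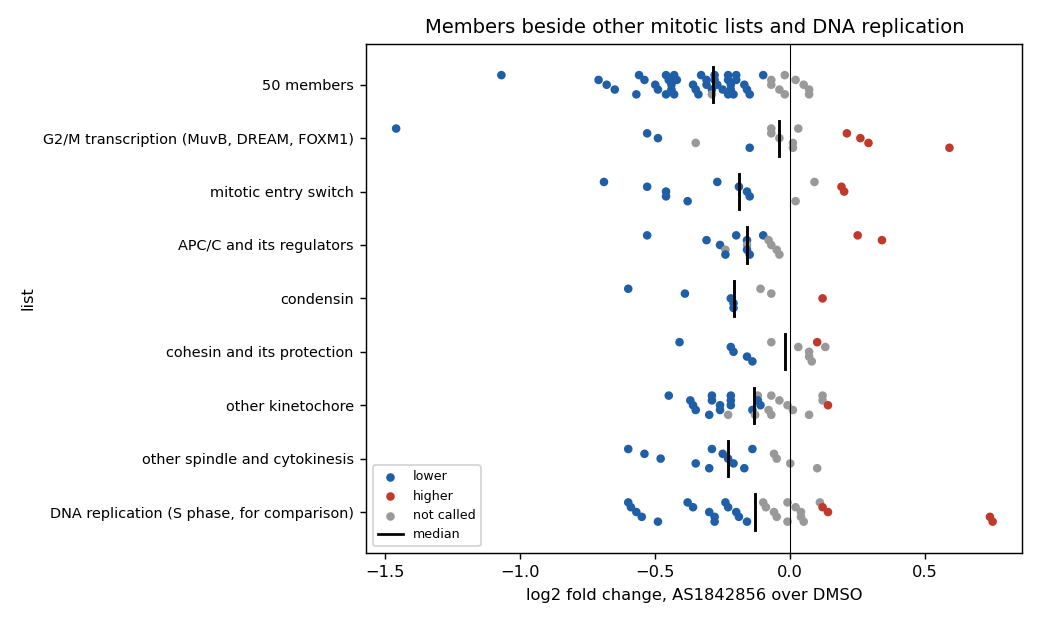
Log2 fold change, AS1842856 over DMSO, of each tested gene in the 50 members, 7 other mitotic lists and the DNA replication list (blue lower, red higher, grey not called, bar for the median). The member median is -0.28, and the medians of the other lists lie between -0.23 and -0.02.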

How the data were processed

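RNA-Seq of BT549 cells was read from the deposited files. According to the paper, reads were mapped with STAR, in an analysis done by the company Novogene. The authors deposited raw counts per gene, with no normalization. The deposited FPKM values were already scaled to gene length and depth. The submitters' processing notes name GRCh38 (hg38) and also Bowtie 0.12.2, with no role given, and the counting tool and its use of strand were not given in the sources used here. All count rows named a gene, and symbols, positions and exons came from GENCODE release 29. From the counts, genes were filtered by filterByExpr (minimum count 10, minimum total 15), scaled by TMM and compared by glmQLFit (robust) and glmQLFTest in edgeR 4.0.16 (R 4.3.3), with Benjamini-Hochberg adjustment over all 14338 genes tested and no block. The standard error is the size of the log2 fold change divided by the square root of F. edgeR was used in place of the study's DESeq2, which was an alternative. The common biological coefficient of variation was 0.0374 at 15289500 to 22981832 counts per library, and replicates differed by more than sampling noise (chi-square per degree of freedom 2.38 to 3.28).

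An exact two-sided permutation test of 3 libraries against 3 cannot go below p = 0.10 for a single gene. Groups came from the treatment label and replicate letters from the labels. The members and lists were chosen with earlier results of these data known. All members are reported by role. Values per library are given for the largest called change in each role, the 10 largest changes, and CCNB1, CDK1, PLK1, MKI67 and MYBL2. In other lists the largest called change in each direction and FOXM1 are named. The alternatives were DESeq2 1.42.0, edgeR with the size factors of DESeq2 or with library totals alone, edgeR with no filter or with a mean of at least 50 counts, limma 3.58.1 (trend, robust) on log2(FPKM + 1) or log2(FPKM + 0.1) for a mean FPKM of at least 0.5, the same on log2(FPKM + 1) without a filter, a replicate block, and each library left out. The edgeR step was first tested on simulated data. Promoter windows were those of RefSeq, searched for exact letters with no test. Results of 1 listed marker gene are not reported here.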

Additional observations from a re-analysis of the deposited data

How the results depend on the processing

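The count of lower members was 40 and ran from 38 to 41 over the 9 alternatives that kept all libraries, and from 39 to 41 with each library left out. The number of higher members was 0 in all of these. The median log2 fold change of the members ran from -0.30 to -0.27, and the median of all genes moved by less than 0.1 under every scaling. DESeq2 called 40 members lower, among 18.8% of 18482 genes, and limma on log2(FPKM + 1) with no filter called 38, among 12.9% of 25015. With the replicate block 40 were lower, with a median of -0.28. The letters were checked for pairing, and deviations of same-lettered libraries correlated at 0.042 (A), -0.012 (B) and -0.00332 (C) over all genes tested. These values gave no sign of pairing, but low-count genes add noise to them. Whether same-lettered libraries shared a culture or a batch was not tested. Calls of members changed for CCNB1, INCENP and CENPA alone, and CENPA lost its call in limma without a filter (adjusted p = 0.099). CCNB1 was also called with library totals alone (0.0429) and with a mean of at least 50 counts (0.0363), and INCENP was not called in limma without a filter (0.0523). The cause was not tested. No called member moved by over 1.5 times when 1 library was left out. PRC1 had a mean of 41.8 counts and a 95% interval from -0.79 to 0.22, which includes the median of the members. Whether depth or the assignment of reads in its shared bases set this was not tested.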

Other observations

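Genes of S phase did not move as 1 block. CDT1, which licenses replication origins, rose from 63.4 to 106 CPM (log2 fold change 0.74, adjusted p = 4.37e-37, edgeR), beside RFC5. The helicase subunits MCM5 and MCM6 fell, with log2 fold changes of -0.60 and -0.57, and so did RRM2, a subunit of ribonucleotide reductase (-0.55), and UHRF1, which maintains DNA methylation (-0.59). MCM4, of the same helicase, had -0.06 and was not called, and RRM1, the partner of RRM2, had 0.12 and was higher. Among regulators of mitotic entry, GTSE1 (-0.53), CKS1B (-0.46) and the inhibitory kinase WEE1 (-0.38) were lower, and ARPP19, which restrains a phosphatase that opposes CDK1, was higher (0.19). These genes were named after their values were seen.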
